A study of Mus musculus with 24 samples.

Results

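The comparison described here asks what the immunostimulatory oligonucleotide CpG-28 did to gene expression in mouse glioma cells that were already receiving carbon nanotubes. It sets K-Luc cells given CpG-28 together with nanotubes (CpG+SWNT/LP, 3 libraries) against K-Luc cells given the same nanotubes without CpG (SWNT/LP, 3 libraries), chosen by their labelled treatment, and so uses 6 of the 24 libraries sequenced. K-Luc is a luciferase-expressing derivative of the KR158B glioma line from C57BL/6 mice. SWNT/LP denotes single-walled carbon nanotubes held in suspension by a lipid-PEG coat. Both groups received 10 µg/mL nanotubes and 10 µg/mL lipid-PEG2000-OMe, and the CpG+SWNT/LP group also received 10 µg/mL CpG-28. Cells attached for 24 h around a culture insert and were harvested after a further 17 to 19 h of treatment, at the end of a migration assay. The other K-Luc groups used below received water (2 libraries), CpG-28 alone (3 libraries) or nanotubes dispersed in CpG-28 without the lipid (SWNT/CpG, 3 libraries). RAW-Blue cells, RAW macrophages carrying a secreted reporter for NF-κB and AP-1, received the same treatments for 47 to 50 h in 2 libraries per group. The design has no control oligonucleotide lacking CpG, and a response to the motif cannot be told apart from one to any added DNA. The labels do not say whether replicates were separate cultures, so the spread behind the p-values below may be technical.

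DNA rich in unmethylated CpG is recognised in endosomes of immune cells by the receptor TLR9, which is brought there by UNC93B1 and signals through MyD88, IRAK kinases and TRAF6 to NF-κB and interferon regulatory factors. The outcome in macrophages and dendritic cells is secretion of cytokines such as TNF and of chemokines. Glioma cells move through brain tissue with the help of integrins, secreted matrix, proteases, small GTPases and actomyosin contraction, and their division and sugar metabolism are the other programmes most often described in these tumours.

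The 6 libraries held 18.4 to 23.5 M counts, so that a gene at 1 count per M (CPM) rested on 18 to 24 counts, a counting error of 20.6% to 23.3%. Replicate 1 of CpG+SWNT/LP was sequenced in run 1 and the other 5 libraries in run 2, and run was a term of the model. Replicate 1 of each group stood apart from its group mates: the root mean square log2 difference between libraries was 0.23 to 0.26 where replicate 1 was involved and 0.16 between replicates 2 and 3 of either group. On the leading principal component of the 6 libraries, which held 58.2% of the variance, the CpG+SWNT/LP libraries lay at -22.4, -11.4 and -10.1 and the SWNT/LP libraries at 5.47, 20 and 18.5. Of 26 listed glial identity genes, 13 were under 1 CPM in the CpG+SWNT/LP group and 14 in the SWNT/LP group. Vim (5485 to 5714 CPM), Nes (184 to 239 CPM) and Sox2 (119 to 140 CPM) were present in all 6. Gfap and S100b, which mark mature astrocytes, did not exceed 0.435 CPM. The glial list summed to 7084 to 7488 CPM in the 6 libraries and to 2358 to 2969 CPM in RAW-Blue, so its sum is not particular to K-Luc. Of the 19 macrophage and leukocyte markers in the table, 17 were under 1 CPM in the CpG+SWNT/LP group and 16 in the SWNT/LP group. Their summed level was 13.4 to 18 CPM with CpG and 14.1 to 17.3 CPM without, against 8255 to 9364 CPM in RAW-Blue, and Adgre1 was at 0 in 5 of the 6 libraries. Of the 5 such markers that could be tested, Lyz2 was called higher (0.75) and none lower.

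CpG added to nanotubes shifted a large share of the transcriptome by small amounts. Of 12420 genes tested, 1867 were higher (15%) and 1958 lower (15.8%) in CpG+SWNT/LP than in SWNT/LP at an adjusted p under 0.05 (edgeR quasi-likelihood F test, Benjamini-Hochberg adjustment). Of these 3825 calls (30.8% of tested genes), 3374 were smaller than 1.5-fold, while 113 rises (0.91% of tested genes) and 24 falls (0.193%) exceeded 2-fold. The median log2 fold change over all tested genes was -4e-04, and 4968 genes (40%) had no overlap between the 3 and the 3 libraries. Without both replicate 1 libraries there were 4494 calls: 3389 of the 3825 genes were called again, and all 3822 of them that were still tested kept their direction. The count fell to 2517 without CpG+SWNT/LP replicate 2, and to 2007 when the 6 libraries were fitted without the other K-Luc groups. In bulk RNA, more or fewer cells of a kind and more or less RNA per cell cannot be told apart.

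Below, each gene's level is its CPM in replicates 1, 2 and 3, and each change is the fitted log2 fold change ± its standard error, with an adjusted p from the edgeR test. The largest rise among genes of at least 1 on the mean log2 CPM scale was that of Crygs, which encodes a lens crystallin, at 2.56, 4.49 and 2.90 CPM with CpG and 0.539, 0.654 and 0.579 CPM without (2.61 ± 0.32, 6.12-fold, adjusted p = 2.82e-05). Itga11, the collagen-binding integrin α11, read 7.68, 3.94 and 4.57 CPM against 1.83, 0.742 and 0.579 CPM (2.15 ± 0.33, adjusted p = 0.000336). Fmod, the collagen-binding proteoglycan fibromodulin, read 33.0, 23.3 and 18.2 CPM against 8.14, 3.75 and 2.67 CPM (2.13 ± 0.42, adjusted p = 0.00448). For Itga11 and Fmod, replicate 1 was the highest library of its group on both sides, and the groups did not overlap for any of these genes.

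Ogn, which encodes the matrix proteoglycan osteoglycin, combined a large rise with a narrow spread: 144, 122 and 101 CPM with CpG and 32.2, 28.8 and 30.7 CPM without (1.90 ± 0.09, 3.72-fold, adjusted p = 5.93e-09). All 3 treated libraries lay more than 3-fold above every SWNT/LP library. The other genes among the 15 largest rises were Lctl (2.04), Gdpd2 (1.97), Prelp (1.90), Lmod1 (1.72), Fndc1 (1.65), Cilp2 (1.64), Synm (1.54), Gm15698 (1.52), Fam180a (1.52), Slc17a9 (1.46) and Cbr2 (1.45). Of these 15, Fmod, Ogn, Prelp and Cilp2 encode matrix proteins, and Lmod1 and Synm encode leiomodin and the intermediate filament protein synemin of contractile cells. The call of Gm15698 was lost without SWNT/LP replicate 2 (adjusted p = 0.081), without SWNT/LP replicate 3 (0.073) or without CpG+SWNT/LP replicate 2 (0.08).

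The largest fall among genes of at least 1 on the same scale was that of Wnt7b, a WNT ligand, at 0.870, 0.806 and 0.484 CPM with CpG and 3.61, 3.97 and 4.19 CPM without (-2.44 ± 0.20, adjusted p = 9.98e-07). Areg, the EGF receptor ligand amphiregulin, read 0.387, 1.23 and 1.23 CPM against 2.16, 4.36 and 3.16 CPM (-1.62 ± 0.29, adjusted p = 0.000689). Il1rl1, which encodes ST2, the receptor of interleukin-33, read 54.5, 105 and 106 CPM against 190, 311 and 268 CPM (-1.31 ± 0.25, adjusted p = 0.0041). In these 3 genes every CpG+SWNT/LP library was below every SWNT/LP library.

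Hmga1, an architectural chromatin protein that is abundant in dividing and transformed cells, fell to 0.502 of its level with very little spread: 76.6, 79.8 and 81.8 CPM against 156, 165 and 168 CPM (-0.99 ± 0.05, adjusted p = 5.26e-09). The remaining genes among the 15 largest falls were Phex (-1.27), Acsbg1 (-1.18), Upp1 (-1.15), Cxcr6 (-1.11), Dkk2 (-1.11), Gpr149 (-1.06), Prkcb (-1.01), Hao1 (-0.98), Ramp3 (-0.97), Slc16a3 (-0.96) and Akr1c18 (-0.95). Among them are the chemokine receptor CXCR6, the WNT antagonist DKK2, protein kinase C β and the lactate exporter MCT4 (Slc16a3). The groups did not overlap in any of the 30 genes, which the rule that chose them required. For Dkk2 the separation was narrow, at 6.33, 2.76 and 3.65 CPM with CpG against 7.06, 7.37 and 7.21 CPM without. Its CpG+SWNT/LP replicate 1, the run 1 library, lay close to the SWNT/LP libraries, and the fitted change includes the run term.

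**Figure D1:**
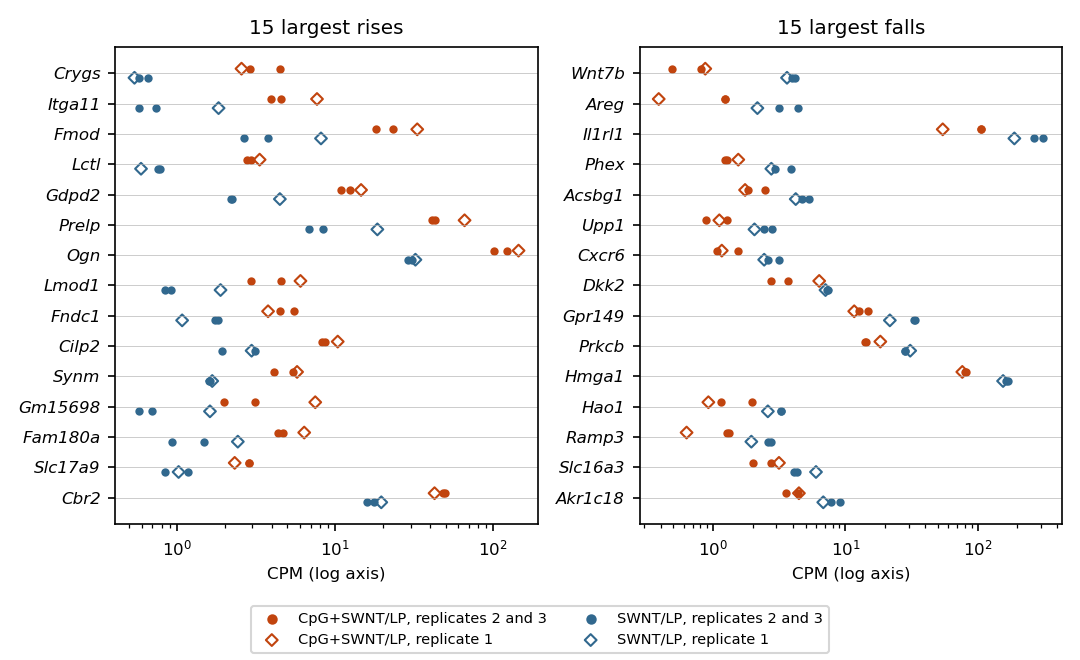
CPM (log axis) of the 15 genes with the largest rises (left) and the 15 with the largest falls (right) in the 3 CpG+SWNT/LP and 3 SWNT/LP libraries of K-Luc, with replicate 1 as an open diamond. Ogn lies at 101 to 144 CPM with CpG and 28.8 to 32.2 CPM without, and Hmga1 at 76.6 to 81.8 CPM with CpG and 156 to 168 CPM without.

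Across 26 gene lists, the 3 with the lowest medians were mitosis, DNA replication, and glycolysis and hypoxia, and the 3 with the highest medians were proteoglycans and matricellular proteins, contractile genes, and collagens. These counts are read against the 15% of all tested genes called higher and 15.8% called lower. Without both replicate 1 libraries the calls went from 37 to 37 (mitosis), 42 to 43 (DNA replication), 26 to 26 (glycolysis and hypoxia), 17 to 18 (proteoglycans), 20 to 20 (contractile genes) and 25 to 28 (collagens).

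**Figure D2:**
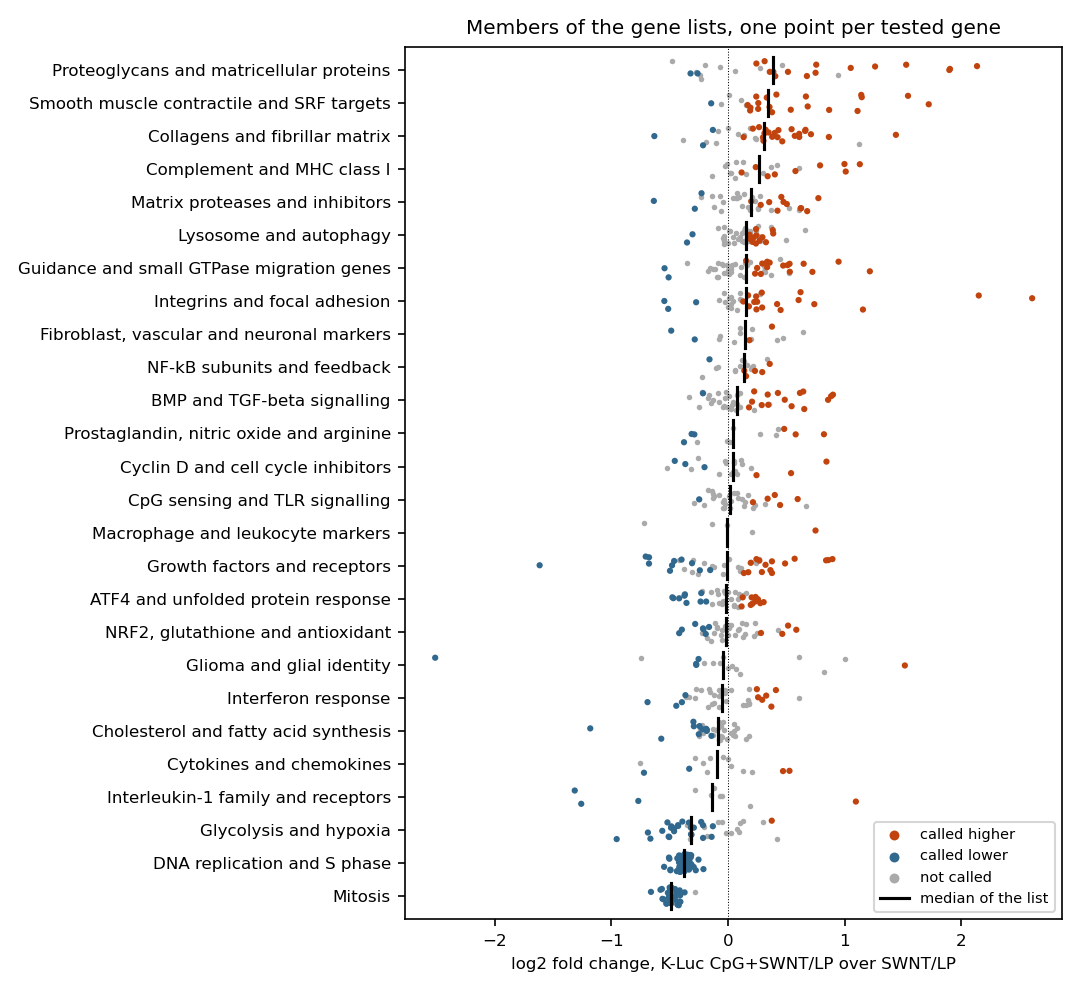
Log2 fold change of CpG+SWNT/LP over SWNT/LP in K-Luc for each tested member of 26 gene lists (one point per gene, colour by call, black bar at the list's median). The medians run from -0.49 for mitosis to 0.39 for proteoglycans and matricellular proteins.

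Genes of the cell division machinery were lower with CpG nearly without exception, and by similar amounts. Of 38 mitosis genes tested, 37 were called lower and 0 higher (median log2 fold change -0.49, range -0.66 to -0.28), and the groups did not overlap in 36. Of 43 DNA replication genes, 42 were called lower and 0 higher (median -0.38), with no overlap in 41. The kinase Cdk1, which drives entry into mitosis, read 152, 180 and 189 CPM with CpG and 227, 274 and 262 CPM without (-0.48 ± 0.07, adjusted p = 7.89e-05). Cdc20, the activator of the anaphase-promoting complex, read 108, 119 and 122 CPM against 165, 169 and 164 CPM (-0.48 ± 0.04, adjusted p = 1.45e-06). For both genes the highest treated library was below the lowest SWNT/LP library.

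The centromere protein gene Cenpf changed by -0.57 ± 0.04 (adjusted p = 3.31e-07), the kinesin Kif20a by -0.52 ± 0.04 and cyclin B1 (Ccnb1) by -0.66 ± 0.09. On the replication side, the helicase subunit Mcm2 read 198, 252 and 264 CPM against 304, 350 and 358 CPM (-0.41 ± 0.07, adjusted p = 0.000653). Mcm7 changed by -0.51 ± 0.07, DNA ligase Lig1 by -0.42 ± 0.05 and the ribonucleotide reductase subunit Rrm1 by -0.37 ± 0.05. In both groups replicate 1 had the lowest Cdk1 and Mcm2 level. Without the libraries left out in turn, the mitosis calls ranged from 36 to 38 and the replication calls from 33 to 43.

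The regulators above the cell cycle were split. Of 21 genes for D-type cyclins and cell cycle inhibitors, 3 were called higher and 3 lower. Cyclin D1 (Ccnd1) fell from 476, 475 and 520 CPM to 347, 349 and 374 CPM (-0.46 ± 0.05, adjusted p = 1.13e-05). The antiproliferative gene Btg2 rose by 0.84 ± 0.10 (adjusted p = 2.41e-05) and Sesn1, a p53 target that restrains mTORC1, by 0.54 ± 0.05 (adjusted p = 2.61e-06).

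The promoters of Cdk1 and Cdc20 are shown because both genes moved with their lists and carry the sequence elements by which cell cycle promoters are usually described. Each is the 250 bases before the RefSeq start site, 5′ to 3′ on the gene's strand, in the GRCm38.p6 build. Capitals mark CCAAT boxes (CCAAT, or ATTGG where it lies on the other strand) and the cell cycle homology region (TTTGAA, or TTCAAA on the other strand). Cdk1 is at chr10:69352913-69353162 (minus strand) and Cdc20 at chr4:118437344-118437593 (minus strand).
Cdk1: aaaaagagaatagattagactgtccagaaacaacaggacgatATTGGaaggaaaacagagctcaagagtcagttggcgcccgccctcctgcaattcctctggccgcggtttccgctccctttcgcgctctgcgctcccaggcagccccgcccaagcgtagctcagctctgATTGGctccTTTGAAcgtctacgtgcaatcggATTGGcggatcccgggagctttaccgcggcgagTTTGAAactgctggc
Cdc20: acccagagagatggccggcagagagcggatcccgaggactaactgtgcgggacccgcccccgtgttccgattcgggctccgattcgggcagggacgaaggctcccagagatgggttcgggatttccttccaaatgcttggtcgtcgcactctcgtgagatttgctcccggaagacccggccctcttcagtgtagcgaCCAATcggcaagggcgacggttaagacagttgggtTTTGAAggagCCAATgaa
A CCAAT box was present in 23 of 31 mitosis promoters found in the RefSeq table (74.2%), against 37.0% of the promoters of 9449 tested genes. TTTGAA on either strand was present in 9 of 31 (29.0%), against 9.95%. The E2F motif TTCCCGC (or GCGGGAA on the other strand) was in 9 of 34 replication promoters (26.5%) and 0 of 31 mitosis promoters, against 7.11% of all. These are letter matches in a short window and describe no binding.

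Genes of glycolysis and of the response to low oxygen were also mostly lower. Of 41 tested, 25 were called lower and 1, Ndrg1 (0.37), higher (median -0.32), with no overlap in 28. Lactate dehydrogenase A (Ldha), which turns pyruvate into lactate, read 675, 716 and 689 CPM with CpG and 996, 1042 and 1028 CPM without (-0.52 ± 0.05, adjusted p = 1.96e-06). Bnip3, a mitophagy receptor and a classical target of the oxygen-regulated factor HIF-1, read 31.7, 28.4 and 26.2 CPM against 45.6, 44.2 and 42.1 CPM (-0.69 ± 0.07, adjusted p = 3.5e-06). The ranges of the groups lay well apart in both genes.

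Along the glycolytic pathway, Tpi1 changed by -0.50 ± 0.05 and Pgam1 by -0.56 ± 0.08. Pdk1, which keeps pyruvate out of the mitochondria, changed by -0.49 ± 0.06 (adjusted p = 2.61e-05). The lactate transporters Slc16a1 (-0.46 ± 0.07) and Slc16a3 (-0.96 ± 0.19) were both called lower. The angiogenic factor Vegfa, another HIF-1 target, read 93.5, 94.4 and 96.7 CPM against 139, 128 and 132 CPM (-0.48 ± 0.05, adjusted p = 3.5e-06).

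The promoters of Ldha and Bnip3 are given in the same form, from the same build. Capitals mark the core of the hypoxia response element, ACGTG (or CACGT on the other strand). Where it reads CACGTG, the match is present on both strands and overlaps itself. Ldha is at chr7:46845554-46845803 (plus strand) and Bnip3 at chr7:138909507-138909756 (minus strand).
Ldha: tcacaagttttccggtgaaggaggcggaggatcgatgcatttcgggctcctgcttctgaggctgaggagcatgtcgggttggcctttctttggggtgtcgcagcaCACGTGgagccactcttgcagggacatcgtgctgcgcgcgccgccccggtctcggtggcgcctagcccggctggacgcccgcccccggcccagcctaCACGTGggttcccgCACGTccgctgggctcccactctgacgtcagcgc
Bnip3: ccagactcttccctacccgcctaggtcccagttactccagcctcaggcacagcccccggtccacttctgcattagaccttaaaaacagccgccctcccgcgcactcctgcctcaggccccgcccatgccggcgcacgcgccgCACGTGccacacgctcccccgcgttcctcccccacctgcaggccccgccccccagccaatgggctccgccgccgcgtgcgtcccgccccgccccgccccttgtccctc
The core was present in 19 of 36 promoters of the glycolysis and hypoxia list (52.8%) and in 22.0% of the 9449. The list was drawn up from genes known for this response.

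Contractile genes rose. Of 24 tested genes of smooth muscle contraction and serum response factor (SRF) targets, 19 were called higher and 1, Smtn (-0.15), lower (median 0.34). Smooth muscle actin (Acta2) read 2352, 2959 and 3074 CPM with CpG and 1357, 1415 and 1382 CPM without (1.11 ± 0.06, 2.16-fold, adjusted p = 2.86e-08). Myl9, the regulatory light chain of non-muscle and smooth muscle myosin, read 130, 162 and 179 CPM against 74.4, 73.5 and 80.1 CPM (1.15 ± 0.08, adjusted p = 3.31e-07). In both genes replicate 1 was the lowest of the CpG+SWNT/LP libraries, and it was still above every SWNT/LP library.

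Calponin (Cnn1) rose by 1.14 ± 0.16 (adjusted p = 8.56e-05) and transgelin (Tagln) by 0.68 ± 0.07 (adjusted p = 3.95e-06), both of them actin-binding proteins of smooth muscle. The cytoplasmic β-actin gene Actb read 3113 to 4208 CPM over the 6 libraries and had a change of 0.04 ± 0.06 (adjusted p = 0.627), which did not pass the test. The Myl9 promoter, in the same form and build at chr2:156775214-156775463 (plus strand), holds the CArG box to which SRF binds, in capitals.
Myl9: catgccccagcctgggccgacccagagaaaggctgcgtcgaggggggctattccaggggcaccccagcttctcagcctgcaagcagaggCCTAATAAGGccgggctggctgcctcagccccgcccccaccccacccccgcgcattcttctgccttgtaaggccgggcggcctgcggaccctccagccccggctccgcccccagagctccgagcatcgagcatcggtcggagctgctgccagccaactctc
A CArG box was present in 3 of 21 contractile promoters, those of Cnn2, Myl9 and Srf (14.3%), and in 1.15% of the 9449. The list was drawn up to hold SRF targets, and the promoters of Acta2 and Cnn1 had 0 matches in this window.

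Many matrix genes were higher as well. Of 37 genes for collagens and other fibrillar matrix, 22 were called higher and 3 lower (median 0.31). Col1a1 read 6302, 6188 and 6843 CPM with CpG and 4923, 3607 and 3984 CPM without (0.61 ± 0.12, adjusted p = 0.00315), so even the highest SWNT/LP library, replicate 1, was below the treated ones. Col6a1 rose by 0.61 ± 0.06 (adjusted p = 5.52e-06), Col4a5 of the basement membrane by 0.40 ± 0.04 and the microfibril gene Fbn2 by 0.71 ± 0.08. The 3 that fell were Fbln2 (-0.63) and the collagen prolyl hydroxylases P4ha2 (-0.21) and P4ha1 (-0.13), the last 2 of which are also on the hypoxia list. Markers of fibroblasts, vessels and neurons, cells that also make matrix, had 2 rises and 2 falls of 14 tested, and summed to 1053 to 1133 CPM with CpG and 902 to 1086 CPM without; their part in these changes was not tested.

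Of 27 proteoglycans and matricellular proteins, 15 were called higher and 2 lower (median 0.39). Thrombospondin 1 (Thbs1), a secreted activator of latent TGF-β, read 4674, 4703 and 4352 CPM against 3108, 2661 and 2668 CPM (0.68 ± 0.06, adjusted p = 3.25e-06). Sparc, a collagen-binding matricellular protein, rose by 0.51 ± 0.06 (adjusted p = 1.01e-05) and tenascin C (Tnc), abundant in glioma matrix, by 0.39 ± 0.07 (adjusted p = 0.00139). Osteopontin (Spp1, -0.32) and Thbs2 (-0.26) were the 2 that fell.

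Several of the small leucine-rich proteoglycans with large rises are neighbours on the chromosome, a pattern picked out after the values were seen. In the RefSeq gene order of GRCm38, the protein-coding genes Atp2b4, Optc, Prelp, Fmod and Btg2 follow one another on chromosome 1, and all 5 were called higher (1.15, 2.13, 1.90, 2.13 and 0.84). Their flanking genes Lax1 and Chit1 were too low to be tested. On chromosome 13, Ogn (1.90) stands next to Omd (0.76), Aspn (1.53) and Ecm2 (0.36 ± 0.35, adjusted p = 0.473). The genes before and after them in this order, Cenpp (-0.31) and Nol8 (-0.21), were called lower. The order is by start position alone, so it does not show whether such a gene overlaps the others. Optc and Aspn were below 2 CPM in all 6 libraries. The call of Omd was lost without CpG+SWNT/LP replicate 2 (adjusted p = 0.084), and that of Aspn without SWNT/LP replicate 2 (0.12), CpG+SWNT/LP replicate 2 (0.051) or CpG+SWNT/LP replicate 3 (0.076).

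Among the receptors for matrix, rises were more frequent than falls. Of 34 integrin and focal adhesion genes, 17 were called higher and 3 lower (median 0.15). The collagen-binding subunits Itga1 (0.74 ± 0.08), Itga2 (1.16 ± 0.25), Itga10 (0.62 ± 0.10) and Itga11 (2.15 ± 0.33) all rose. The laminin receptor subunit Itga6 went the other way, from 25.1, 27.4 and 28.9 CPM to 14.9, 18.2 and 18.7 CPM (-0.55 ± 0.08, adjusted p = 8.61e-05). Cd44, the hyaluronan receptor, fell by 0.27 on the log2 scale.

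Matrix proteases and their inhibitors were less uniform, with 11 higher and 3 lower of 37 (median 0.20). The inhibitors themselves were split: Timp3 rose from 1471, 1259 and 1298 CPM to 2078, 1838 and 1814 CPM (0.46 ± 0.05, adjusted p = 1.62e-05), whereas Timp1 fell from 199, 228 and 222 CPM to 100, 135 and 151 CPM (-0.64 ± 0.08, adjusted p = 4.4e-05). Adamts1, a protease that cleaves aggregating proteoglycans, rose by 0.77 ± 0.11. The number of calls in this list was 9 without SWNT/LP replicate 2 and 9 without CpG+SWNT/LP replicate 2.

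Among 50 guidance and migration genes, 17 were called higher and 2 lower (median 0.15). The secreted semaphorin Sema3f, a repellent that acts through neuropilin 2, read 35.6, 34.3 and 34.7 CPM with CpG and 17.1, 13.5 and 13.4 CPM without (1.22 ± 0.11, adjusted p = 1.62e-06). The ephrin receptor Epha4 read 60.7, 51.6 and 50.7 CPM against 29.3, 25.1 and 25.6 CPM (0.95 ± 0.08, adjusted p = 1.62e-06). For both genes every treated library was above every SWNT/LP library. Sema3a, a relative of Sema3f that acts through neuropilin 1, fell by 0.51 ± 0.10 (adjusted p = 0.00189). The list had 12 calls without CpG+SWNT/LP replicate 2.

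In BMP and TGF-β signalling, 15 of 43 genes were called higher and 1 lower (median 0.07). The rises included ligands (Tgfb3 0.65 ± 0.11, Bmp4 0.49 ± 0.09), secreted antagonists (Chrd 0.88 ± 0.16, Fst 0.62 ± 0.14) and early targets of BMP receptors. Of these targets, the transcription factor Atoh8 read 63.7, 67.6 and 72.5 CPM against 41.6, 37.6 and 37.0 CPM (0.86 ± 0.06, adjusted p = 1.99e-07). The inhibitory Smad6 rose by 0.90 ± 0.09 (adjusted p = 4.07e-06) and Id3 by 0.64 ± 0.06 (adjusted p = 1.88e-06). The 3 treated libraries were above the 3 SWNT/LP libraries for Atoh8, Smad6 and Id3. For Id1 the groups overlapped, at 64.2, 86.2 and 85.2 CPM against 57.9, 77.3 and 64.2 CPM. Its call as higher was lost without SWNT/LP replicates 1 or 3 or CpG+SWNT/LP replicates 2 or 3 (adjusted p = 0.092 to 0.13, edgeR). The related Id2 was at 0.35 ± 0.16 (adjusted p = 0.116) and did not pass.

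Growth factor genes moved in both directions, with 15 higher and 11 lower of 44 (median -0.01). Besides Areg, the EGF receptor ligand Hbegf fell by 0.46 ± 0.10 (adjusted p = 0.00423), Hgf by 0.68 ± 0.15 and the ERK phosphatase Dusp4, a feedback target of the same receptors, by 0.71 ± 0.10 (adjusted p = 6.63e-05). Igf1 rose from 7.71, 7.37 and 7.66 CPM to 16.8, 14.2 and 13.8 CPM (0.89 ± 0.10, adjusted p = 1.04e-05), and its binding protein Igfbp3 fell by 0.68 ± 0.07 (adjusted p = 8.15e-06). The list had 16 calls without SWNT/LP replicate 2 and 16 without SWNT/LP replicate 3.

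Complement and MHC class I genes included 9 rises and 0 falls of 22 (median 0.27). Complement C3, the central component of the cascade, read 58.4, 94.0 and 87.5 CPM with CpG and 39.0, 40.5 and 42.5 CPM without (1.13 ± 0.19, adjusted p = 0.00136). The initiating proteases C1s1 (1.00 ± 0.18) and C1ra (0.79 ± 0.11) rose, as did the peptide-loading factor Tapbp (0.40 ± 0.07, adjusted p = 0.000727). Replicate 1 was the lowest treated library for C3 and the highest for C1ra and C1s1.

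Metabolic and stress lists gave smaller changes. Cholesterol and fatty acid synthesis had 0 rises and 11 falls of 38 (median -0.09), among them the elongase Elovl6 (-0.29 ± 0.05). Genes of the ATF4 and unfolded protein response split, with 10 higher and 9 lower of 40. Those lower included the serine and asparagine enzymes Shmt2 (-0.48 ± 0.05), Psat1 (-0.47 ± 0.06) and Asns (-0.37 ± 0.04), while the chaperone-side genes Xbp1 (0.30), Syvn1 (0.24) and Herpud1 (0.23) were higher. Of 39 NRF2 and glutathione genes, 4 were called higher and 7 lower. The NRF2 target Nqo1 was at 0.15 ± 0.09 (adjusted p = 0.202), Gsr fell by 0.40 ± 0.06 and Gstm1, one of a family of close paralogs, rose by 0.58 ± 0.06. The lysosome list had 12 rises and 2 falls of 50 (median 0.15). That count of 14 calls became 34 without SWNT/LP replicate 1, 9 without SWNT/LP replicate 2 and 28 without both replicate 1 libraries.

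The genes that sense CpG DNA moved little in K-Luc. Tlr9 itself had 0 counts in all 3 CpG+SWNT/LP libraries, where a count of 0 allows up to 0.127 to 0.147 CPM, and 3 counts in the SWNT/LP group. Tlr7 had 9 and 12 counts, Tlr8 had 0 in all 6 libraries, and Tnf, a cytokine that TLR signalling induces in macrophages, had 0 in all 6. Of 34 tested sensing and TLR signalling genes, 5 were called higher and 1 lower (median 0.02), a share of 17.6% against 30.8% of all tested genes. Tlr2, a receptor for bacterial lipoproteins at the cell surface, had the strongest support: 36.4, 50.7 and 42.0 CPM with CpG and 31.2, 29.7 and 30.1 CPM without (0.60 ± 0.08, adjusted p = 4.27e-05).

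The adaptor Ticam1 (0.45 ± 0.09, adjusted p = 0.00198) and Unc93b1 (0.40 ± 0.10, adjusted p = 0.0054) also rose, with no overlap between groups. Myd88 (0.05 ± 0.07, adjusted p = 0.631), Irak1 (0.01 ± 0.04, adjusted p = 0.945) and Traf6 (0.02 ± 0.06, adjusted p = 0.812) did not pass the test. The calls of Tlr1 (0.34), Tlr4 (0.21) and Hmgb1 (-0.25) each rested on individual libraries. Tlr1 lost its call without SWNT/LP replicates 2 or 3 or CpG+SWNT/LP replicates 1 or 2 (adjusted p = 0.064 to 0.11). Tlr4 lost it without SWNT/LP replicates 1 or 3 or CpG+SWNT/LP replicate 2 (0.061 to 0.21), and Hmgb1 without any of the libraries other than SWNT/LP replicate 1 (0.077 to 0.17). The list had 12 calls without SWNT/LP replicate 1, 3 without SWNT/LP replicate 3, 3 without CpG+SWNT/LP replicate 2 and 11 without both replicate 1 libraries.

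Of 19 NF-κB subunits and feedback genes, downstream of the sensors, 15 had a positive change and 5 were called higher and 1 lower (median 0.14). The share called, 31.6%, was near the 30.8% of all tested genes. The groups did not overlap in 4 of the 19, against 40% of all tested genes. They overlapped for the 2 rises with the smallest adjusted p, Zc3h12a (0.29 ± 0.07) and Nfkb1 (0.15 ± 0.04). The list had 2 calls without SWNT/LP replicate 3 or without CpG+SWNT/LP replicate 2. The inhibitor Nfkbia was at 0.36 ± 0.11 (adjusted p = 0.0224), a call lost without SWNT/LP replicates 1 or 3 or CpG+SWNT/LP replicate 2 (0.066 to 0.13). Of 14 cytokines and chemokines tested out of 32 listed, 2 were higher and 2 lower, and the list had 2 calls without SWNT/LP replicate 3, CpG+SWNT/LP replicate 1 or CpG+SWNT/LP replicate 3. The 2 higher were Cxcl12 (0.53 ± 0.06, adjusted p = 9.49e-06) and Cx3cl1 (0.47 ± 0.07, adjusted p = 8.56e-05). Il11 was among the lower (-0.72 ± 0.25, adjusted p = 0.0363), a call lost without any compared library other than SWNT/LP replicate 1 (0.066 to 0.13). Ccl2 was at -0.04 ± 0.17 (adjusted p = 0.872).

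In the interleukin-1 family, the ligand Il18 rose from 1.02, 1.05 and 1.16 CPM to 2.75, 2.33 and 2.07 CPM (1.10 ± 0.18, adjusted p = 0.000374), and its receptor chain Il18rap fell from 41.4, 55.3 and 51.0 CPM to 21.4, 29.6 and 28.6 CPM (-0.77 ± 0.11, adjusted p = 0.000112). The list had 1 rise and 3 falls of 10 tested: besides Il18rap and Il1rl1, Il18r1, the other chain of that receptor, was called lower (-1.26 ± 0.46, adjusted p = 0.0463) at levels under 1 CPM, a call lost without any of the 6 libraries other than SWNT/LP replicate 1 (0.079 to 0.17). Of 38 interferon response genes, 6 were called higher and 4 lower (median -0.05), a share of 26.3% against 30.8% of all tested genes. The rises included Ddx58 (0.33 ± 0.07) and Gbp2 (0.41 ± 0.11, adjusted p = 0.00929). Oasl2 was called lower (-0.44 ± 0.12, adjusted p = 0.0105) although its groups overlapped, and so were Isg15 and Ifit1. These 3 falls lost their calls without both replicate 1 libraries (adjusted p = 0.064, 0.073 and 0.1). The call of Gbp2 was lost without CpG+SWNT/LP replicate 2 (adjusted p = 0.073) or SWNT/LP replicate 3 (0.05). The interferon list had 4 calls without SWNT/LP replicate 2, 5 without SWNT/LP replicate 3 and 6, 2 and 6 without CpG+SWNT/LP replicates 1, 2 and 3.

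The 5 K-Luc groups show where these levels stood relative to cells without nanotubes. Ogn was at 38.1 and 35.0 CPM in untreated cells and 143, 143 and 122 CPM with CpG alone, close to the levels of the nanotube groups without and with CpG. Acta2 was at 1438 and 1491 CPM untreated and 2930, 3103 and 3055 CPM with CpG alone. Ldha differed in its starting level: it was at 730 and 826 CPM in untreated cells and 996 to 1042 CPM in SWNT/LP cells, and CpG+SWNT/LP cells, at 675 to 716 CPM, were just below the untreated libraries. Bnip3 was likewise highest in SWNT/LP, at 42.1 to 45.6 CPM, whereas its CpG+SWNT/LP libraries, at 26.2 to 31.7 CPM, overlapped the untreated ones at 30.8 and 28 CPM. With CpG alone, Ldha was at 559 to 625 CPM and Bnip3 at 21.6 to 24.3 CPM, both below the untreated and the CpG+SWNT/LP libraries. In SWNT/CpG cells, which received the same amounts of CpG and nanotubes in another formulation, Ogn read 82.8 to 106 CPM and Cdk1 119 to 137 CPM, the latter below the 152 to 189 CPM of CpG+SWNT/LP.

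**Figure D3:**
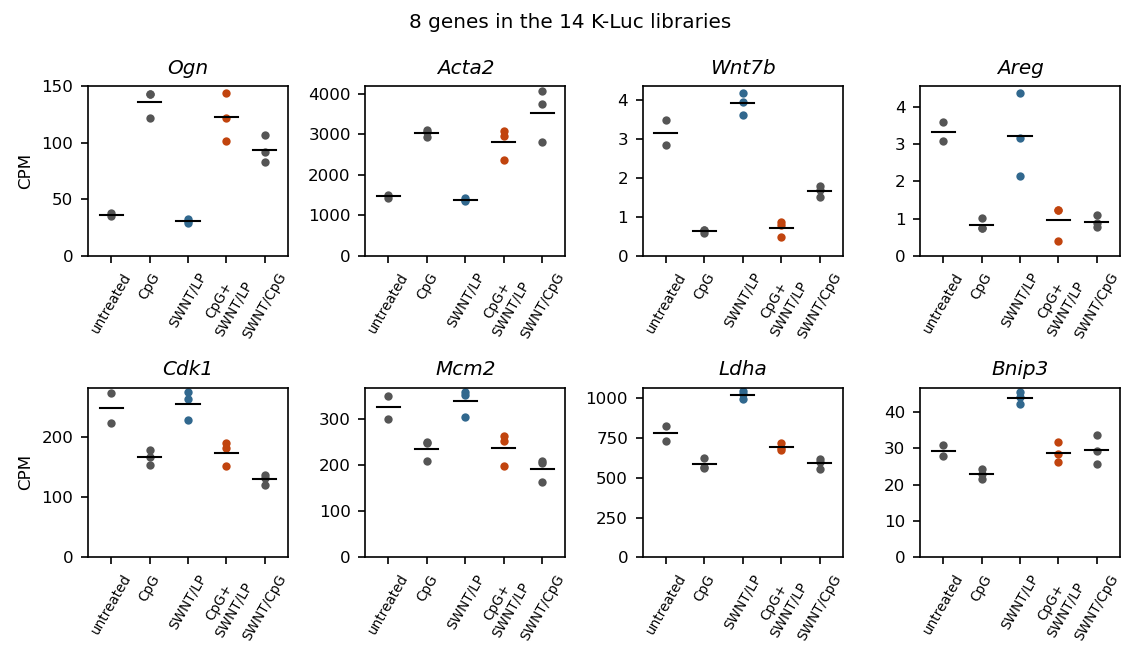
CPM of 8 genes in the 14 K-Luc libraries by treatment group (points, libraries; bars, group means; axes start at 0). CpG+SWNT/LP (red) lies near CpG alone for Ogn, Acta2, Wnt7b, Areg, Cdk1 and Mcm2, and SWNT/LP (blue) is above the untreated libraries for Ldha and Bnip3.

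Whether CpG acted differently in the presence of nanotubes was tested as the difference between 2 changes: CpG+SWNT/LP over SWNT/LP, and CpG alone over untreated. The 2 changes share no library, but they share the fit and its run term. No gene reached an adjusted p under 0.05 for the difference (0 of 12420, edgeR), with 427 genes at an unadjusted p under 0.05. DESeq2 also called 0, with 225 genes at an unadjusted p under 0.05. Across genes the 95% interval of the difference had a median half-width of 0.25 on the log2 scale. That interval is not adjusted for the number of genes tested, so differences larger than that could be missed as well. In simulated data the test of the difference called 22% of genes changed 1.25-fold, 70% at 1.5-fold and 94% at 2-fold. For Ogn the interval of the difference ran from -0.44 to 0.16, for Hmga1 from -0.14 to 0.14 and for Tlr2 from -0.06 to 0.47.

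CpG alone changed 4498 genes (36.2% of those tested), of which 2217 rose (17.9%) and 2281 fell (18.4%). That count was 1531 without untreated replicate 2, which leaves 1 untreated library. Both comparisons called 2988 genes, 78.1% of those called with nanotubes and 66.4% of those called without, and 2986 of the 2988 had the same direction. Across all 12420 genes the 2 changes had a Pearson r of 0.67, and of 0.77 over 12028 genes when each was fitted separately. Genes are not independent replicates, and no p is attached to these values.

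How many calls were shared differed between the lists. Of the 37 mitosis genes called lower with nanotubes, all 37 were also called lower with CpG alone, as were 42 of 42 replication genes. The fitted sizes were less alike: the median was -0.49 with nanotubes and -0.58 without for mitosis, and -0.38 and -0.62 for replication. The difference had an unadjusted p under 0.05 (edgeR) for 2 of 38 mitosis and 9 of 43 replication genes, and 0 passed after adjustment. Fitted sizes include the run term, and replicate 1 of the untreated and of the CpG+SWNT/LP group were run 1. Mean levels were not always less alike in the same way. Mean Mcm7 went from 138 to 91.4 CPM with nanotubes and from 128 to 92.1 CPM without. Mean Rrm1 went from 439 to 329 CPM and from 441 to 316 CPM. The part of the run term in this difference was not tested. Shared calls numbered 16 of 20 for contractile genes, 19 of 25 for collagens and 20 of 26 for glycolysis and hypoxia. Fewer were shared among NF-κB genes (2 of 6), interferon response genes (5 of 10) and prostaglandin, nitric oxide and arginine genes (3 of 6). CpG alone called only 2 NF-κB genes, so no more could be shared. Of the genes called with CpG alone, 12 of 32 in the lysosome list, 6 of 12 in the CpG sensing list and 6 of 12 among D-type cyclins and cell cycle inhibitors were called with nanotubes too. With 1 library left out, the calls with nanotubes ranged from 9 to 34 in the lysosome list and from 3 to 12 in the CpG sensing list. Crygs rose by 2.61 with nanotubes and 2.23 without, Wnt7b fell by 2.44 and 2.34, and Hmga1 by 0.99 in both. Bnip3 changed by -0.69 with nanotubes and -0.25 without. The difference for Bnip3, -0.44, did not pass the test after adjustment.

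**Figure D4:**
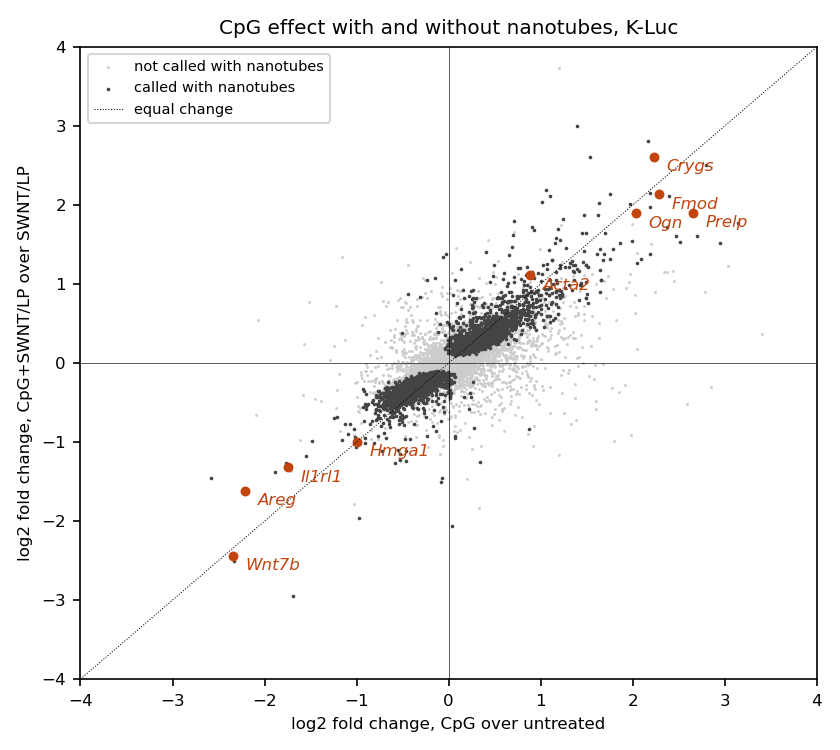
Log2 fold change of CpG+SWNT/LP over SWNT/LP (y axis) against that of CpG over untreated (x axis) for the tested genes of K-Luc, with genes called with nanotubes in dark grey and 9 genes named in red. Wnt7b, Areg and Il1rl1 lie at the lower left and Crygs, Fmod, Ogn and Prelp at the upper right, and 5 genes lie outside the axes.

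In RAW-Blue macrophages the same addition raised Tnf and a group of chemokine genes. In that line 282 genes were higher (2.45%) and 273 lower (2.37%), together 4.82% of 11514 tested, with 2 libraries per group and a longer treatment. The number of calls was 98 to 175 when any of the 4 libraries was left out, and 2182 when the 4 were fitted alone. Tnf rose from 236 and 257 CPM to 582 and 596 CPM (1.25, adjusted p = 4.9e-05). The neutrophil growth factor Csf3 rose from 4.63 and 4.25 CPM to 64.9 and 87.1 CPM (4.10), and the monocyte chemokine Ccl2 from 39.7 and 38.5 CPM to 159 and 189 CPM (2.15, adjusted p = 4e-05).

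Of 18 cytokines and chemokines tested in RAW-Blue, 10 were called higher and 1 lower (median 1.26), beside 2 and 2 of 14 in K-Luc. Tlr9 was expressed there at 13 and 13.3 CPM without CpG and 17.8 and 19.8 CPM with it (0.52, adjusted p = 0.018). Of 38 mitosis genes, 0 were higher and 2 lower in RAW-Blue (median -0.15), and of 43 replication genes 1 was higher and 0 lower (median 0.03). Glycolysis and hypoxia genes had 10 falls and 0 rises of 41 in RAW-Blue (median -0.22), including Bnip3 (-0.51, adjusted p = 0.032) and Pdk1 (-0.40, adjusted p = 0.023).

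Of 10576 genes tested in both, 3245 were called in K-Luc and 448 in RAW-Blue. Called in both were 171, which is 5.27% of these K-Luc calls and 38.2% of these RAW-Blue calls. The 38.2% is read against the 3245 of 10576 genes called in K-Luc, and the 5.27% against the 448 of 10576 called in RAW-Blue. Both were somewhat higher than the share of the 10576 called in that line. Over all genes tested in each line, which is another set, 30.8% were called in K-Luc and 4.82% in RAW-Blue. Of these 171, 72 changed in the same direction and 99 in opposite directions. Across the 10576 genes, the changes in K-Luc and RAW-Blue had a Pearson r of -0.11, to which no p is attached. A joint fit of all 24 libraries found 1669 genes (12.5% of 13350) whose change differed between the lines, 820 (6.14%) with the more positive change in K-Luc and 849 (6.36%) with the more positive change in RAW-Blue. Treatment time and cell line cannot be told apart in this comparison. Tlr2 was a case with opposite directions: it fell in RAW-Blue from 140 and 139 CPM to 105 and 102 CPM (-0.43, adjusted p = 0.0055), and its change in K-Luc was 1.03 ± 0.11 higher on the log2 scale (adjusted p = 1.54e-06).

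**Figure D5:**
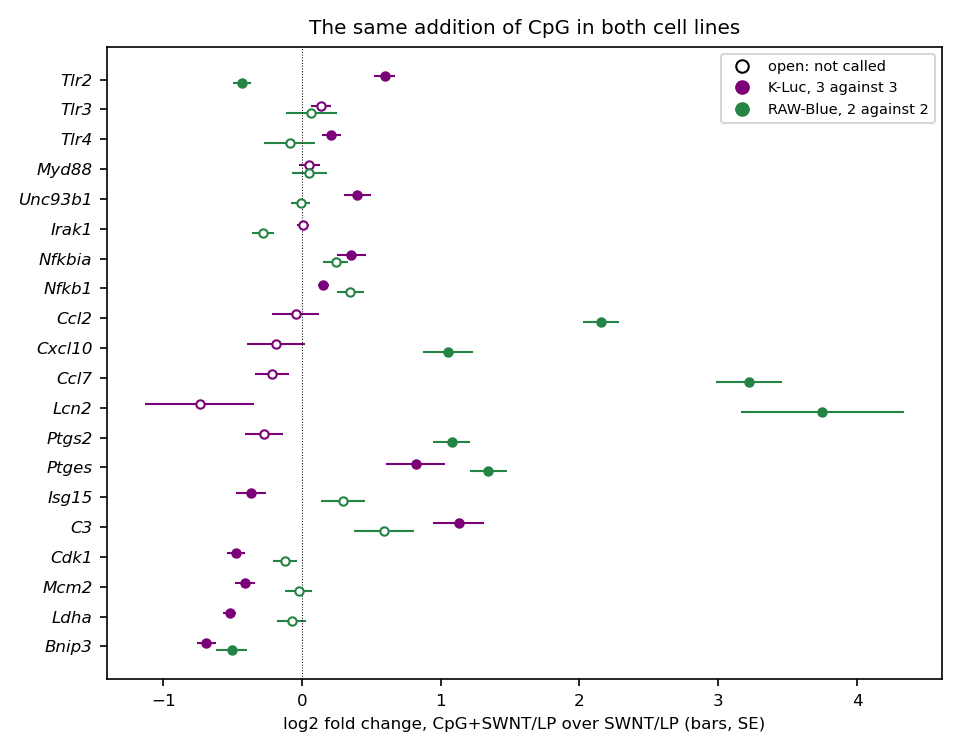
Log2 fold change of CpG+SWNT/LP over SWNT/LP (bars, SE) for 20 genes in K-Luc (3 against 3 libraries) and RAW-Blue (2 against 2), with open symbols for genes that did not pass the test. Ccl2, Ccl7, Lcn2 and Ptgs2 rose in RAW-Blue, and Cdk1, Mcm2 and Ldha fell in K-Luc.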

How the data were processed

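RNA from 24 libraries of 2 mouse cell lines was sequenced with a stranded poly(A) kit, per the labels' protocols. The authors aligned and counted reads with TopHat2 2.0.14 and HTSeq 0.6.0 on the mm9 build, per the submitters' processing notes; which annotation and strand setting the counting used is not given in the sources used here. Reads of overlapping genes and of near-identical copies (Hmga1, C1ra, C1s1 and the Gstm genes among them) may be shared between genes. The deposited table holds raw read counts for 21669 genes, and RPKM values are in a second deposited table. The RPKM served as a check alone: read against the counts of 2198 genes, they gave depths, relative to replicate 1 of CpG+SWNT/LP, that were 0.991 to 1.02 times those of the count totals in the 6 libraries compared.

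All tests used edgeR 4.0.16 under R 4.3.3 (TMM scaling, filterByExpr by group with a minimum count of 10 and a minimum total of 15, robust quasi-likelihood F test, Benjamini-Hochberg adjustment over all tested genes, calls at an adjusted p under 0.05). One fit held the 14 K-Luc libraries with group and run as terms, one the 10 RAW-Blue libraries with group, and one all 24. CPM used TMM-scaled library sizes. The run term can make a fitted change differ from the ratio of the CPM. Fits were repeated with libraries of the compared groups left out in turn, with a replicate block, without the filter, with the size factors of DESeq2 1.42.0, and in DESeq2 itself. The CpG+SWNT/LP comparison in each line was also fitted on only its own libraries, and fits with a run term without it and in run 2 alone. Leaving out both replicate 1 libraries was added after seeing the data. On data simulated for the K-Luc comparison over 12311 genes, the test recovered 62% of genes changed 1.25-fold, 94% at 1.5-fold and 100% at 2-fold. Only genes above a low level were changed, 50 at each size, far fewer than were called in the data. The simulated counts held no shift by run or by replicate 1, so recovery in the data may differ.

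Named genes were the 15 largest rises and falls that passed the test, had groups without overlap and averaged at least 1 in log2 CPM, up to 3 members of each of 26 lists by adjusted p, all CpG sensing genes, a few fixed controls, and some chosen after their values were seen. The members and lists were chosen with earlier results of these data known. Promoters were the 250 bases before the start site in the RefSeq table (GRCm38.p6), matched by symbol for 9449 of the 12420 genes.

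Replicate numbers are shared between the groups. The deviations of same-numbered libraries from their group means correlated at 0.167, 0.158 and 0.092 across genes; since the last is under 0.1, the numbers were not taken to pair the libraries.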

Additional observations from a re-analysis of the deposited data

Results flagged for a closer look

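The change made by adding CpG to nanotubes differed between K-Luc and RAW-Blue for 1669 genes by the test of the difference itself (edgeR, joint fit). Treatment lasted longer in RAW-Blue, and line and time cannot be told apart. Among genes with more than 3 counts in each of the 4 groups, the change in K-Luc was the more positive for Nrbp2 (difference of log2 fold changes 3.08), Pik3ip1 (2.94), the carbonyl reductase Cbr2 (2.68), the integrin-linked adaptor Lims2 (2.23) and Tlr2 (1.03). Pik3ip1, an inhibitor of PI3 kinase, rose in K-Luc from 40.5, 29.1 and 29.4 CPM to 68.7, 56.8 and 49.4 CPM and fell in RAW-Blue from 6.06 and 5.47 CPM to 1.36 and 1.11 CPM.

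The change in RAW-Blue was the more positive for lipocalin 2, Lcn2 (-4.50), the chemokine Ccl7 (-3.44), the growth hormone receptor Ghr (-2.61), podoplanin, Pdpn (-2.59) and the protease Adamts7 (-2.57). Ccl7 rose in RAW-Blue from 1.92 and 2.58 CPM to 17.9 and 24.1 CPM, while K-Luc had 4.20, 3.86 and 3.96 CPM with CpG and 4.69, 5.11 and 4.32 CPM without. Pdpn, a membrane glycoprotein of invasive glioma cells, fell in K-Luc (-0.29 ± 0.04, adjusted p = 0.000173) and rose in RAW-Blue from 1.13 and 1.62 CPM to 6.49 and 7.14 CPM.

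A difference was also called for 10 genes of which a group held 3 counts or fewer, so no fold is given for them. Their adjusted p values (edgeR) were 0.0107 for Ppp1r9a, 0.00341 for Peli3, 0.000801 for Klhl30, 0.00302 for Cx3cr1, 0.011 for Gypc, 0.0161 for Col5a3, 0.0158 for Zfp941, 0.0216 for Btbd11, 0.00631 for Tnnt2 and 0.0106 for Padi2. The calls for Lims2, Padi2 and Cx3cr1 were lost when some K-Luc libraries were left out, and those of Ppp1r9a, Gypc, Col5a3, Zfp941, Btbd11 and Tnnt2 when some RAW-Blue libraries were.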

How the results depend on the processing

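The number of genes called for CpG+SWNT/LP against SWNT/LP in K-Luc (3825) was 3291 with DESeq2, 3850 with DESeq2 size factors, 3537 without the filter, 3452 without the run term and 2874 in run 2 alone. It was 2007 with only the 6 libraries fitted, 4494 without both replicate 1 libraries, and 2517 (without CpG+SWNT/LP replicate 2) to 5036 (without SWNT/LP replicate 1) when each library was left out in turn. For the RAW-Blue comparison (555) leaving out a library gave 98 to 175, and fitting only its 4 libraries gave 2182. For the difference between the lines (1669) leaving out a library gave 852 to 2216. The cause of these shifts was not tested, beyond the smaller number of samples.

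Adding the replicate number as a block gave 6185 calls in K-Luc, 2 for the difference with and without nanotubes (Lypla1 and Trf), 524 in RAW-Blue and 2670 for the difference between the lines. The numbers were not shown to pair the libraries, although each library's deviations correlated best with its own number, which is only a hint from the data. The difference with and without nanotubes had 0 calls under every alternative run other than the block.

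Over 14 alternatives, 2778 values were recomputed for the named genes tested in K-Luc (199 genes). Of these, 2609 kept their side of the threshold, 134 lost the call and 35 gained one. A change of direction was counted only where the main fit or the alternative called the gene, and there were 0. Genes called in neither could change sign and still be counted as kept. Of 155 named genes called in K-Luc, 23 lost the call without at least 1 of the 6 libraries. Depth limits genes near 1 CPM most, where counting error alone exceeds 20.6% per library; the limits given for counts of 0 cover counting error only. In simulated data small changes were the ones most often missed, with 62% of 1.25-fold changes recovered. Those data had no changed genes near 1 CPM, and recovery at that level was not tested.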

Other observations

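Both small lists not described above were mixed. Of 13 genes for prostaglandin, nitric oxide and arginine metabolism tested in K-Luc, 3 were called higher and 3 lower. The prostaglandin E synthase Ptges was at 1.40, 1.53 and 1.41 CPM with CpG and 0.863, 0.960 and 0.713 CPM without (0.82 ± 0.21, adjusted p = 0.00854, edgeR), while the upstream cyclooxygenase Ptgs2 was at -0.27 ± 0.14 (adjusted p = 0.157). In RAW-Blue both were called higher (Ptges 1.34 and Ptgs2 1.08).

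Of 17 glial identity genes tested, 1 was called higher and 4 lower, and these 5 calls were 3 without SWNT/LP replicate 3. Nes, an intermediate filament of neural progenitors, fell by 0.25 on the log2 scale. The tumour suppressor Trp53 read 79.1, 88.7 and 93.2 CPM with CpG and 103, 111 and 112 CPM without (-0.27 ± 0.05, adjusted p = 0.000921, edgeR). Fabp7 rose and Aldh1l1 fell, both at levels under 2 CPM in all 6 libraries, and the call of Fabp7 was lost without both replicate 1 libraries (adjusted p = 0.062, edgeR).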
